A study of Mus musculus with 6 samples.

Results

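The genes described here copy the genome and supply its building blocks. They are 44 mouse genes, chosen by function: 10 for origin licensing, 5 for Cdc45 and the GINS complex, 5 for polymerases and primase, 6 for the sliding clamp and its loader, 4 for strand binding and Okazaki fragment processing, 4 for nucleotide supply, 6 G1/S cyclins and E2F factors, and 4 for chromatin assembly and DNA methylation. The rule also asked for 10 or more counts in at least 3 of the 6 libraries. All 44 met it, out of 19949 genes in the expression tables, and all 44 were among the 15066 genes tested. The weakest was Orc1, which had 7 counts in its lowest library and 10 or more in the other 5.

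The libraries came from colon tissue of BALB/c mice of 6 to 8 weeks. The 2 groups were STAT6-/- and wild type (WT), with 3 libraries each, and both groups drank 3% dextran sulphate sodium (DSS), a detergent that injures the colon epithelium, for 3 days. No untreated group was analysed here, so every value describes tissue under DSS. Total RNA was taken from whole washed pieces of colon, and the labels give neither the STAT6 allele nor whether the replicates are separate animals, so p-values measure only the spread between these samples, which may be technical.

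Stat6, the transcription factor that acts downstream of interleukin-4 and interleukin-13, lies at chr10:127642955-127660987 (mm10). It stood at 49.9, 38.5 and 53.2 CPM (expected counts scaled to library size) in STAT6-/- replicates 1, 2 and 3 and at 91.7, 104.0 and 88.8 CPM in the WT libraries. The groups did not overlap (47.2 ± 7.74 against 94.8 ± 8.11 CPM, SD, n = 3 each; log2 difference -1.01, adjusted p = 0.0134 by edgeR's quasi-likelihood test). With 3 against 3 libraries an exact permutation test (two-sided) cannot go below p = 0.1, the value it gave. The adjusted p ranged from 1.76e-05 to 0.0725 over the alternatives, and it missed the threshold if WT replicate 2 (0.0725) or WT replicate 3 (0.0721) was left out. A transcript of the gene was therefore still counted in the STAT6-/- libraries, at a lower level.

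The groups also differed in sex-linked genes. Xist, the RNA of the inactive X chromosome, stood at 352 to 545 CPM in the WT libraries and at 0.265 to 0.992 in the STAT6-/- libraries, while the Y-linked Ddx3y stood at 50.9 to 59.5 CPM in STAT6-/- and at 0.0567 to 0.124 in WT. Sex and genotype therefore cannot be told apart in any difference below. Of the colon epithelium markers, Epcam was abundant in every library (1540 to 2274 CPM). Slc26a3, the chloride-bicarbonate exchanger of surface colonocytes, stood at 254.5 to 1608 CPM in STAT6-/- and at 2176 to 3373 CPM in WT. Its groups did not overlap, and it did not pass the test (adjusted p = 0.0799, edgeR). The libraries held 17122315 to 19555450 counts each.

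Replication runs in steps. The origin recognition complex, Cdc6 and Cdt1 load a ring of Mcm proteins onto DNA in G1; cyclin and Dbf4-dependent kinases then bring in Cdc45 and GINS, which turn the ring into a working helicase. Primase and the polymerases synthesise DNA behind it, held on by the Pcna clamp, and Fen1 and Lig1 trim and join the fragments of the lagging strand. Many of these genes are known targets of E2F transcription factors, which are released as a cell commits to S phase. In the colon, dividing cells sit in the lower crypt, and immune cells of the wall can divide as well.

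Because E2F binding is the textbook link among these genes, their promoters were searched for E2F-type letters. For each called member with a match, 1 match is shown, beside some in members that did not pass the test. Mcm3 and Dnmt1, and of the others shown Mcm5, Mcm6 and Rfc3, hold further matches that are not marked. The search took 4 strings, TTTCGCGC, TTTGGCGC, TTTCCCGC and TTTGCCGC, on both strands, in the RefSeq promoter windows of GRCm38.p6 (the mm10 assembly), which run from 250 bases before to 50 bases after a start site. Of the 44 members, 35 had at least 1 window. In each line the match is in capitals, 5′ to 3′ on the gene's strand, with up to 10 bases on either side; a match on the opposite strand appears as its reverse complement. The called members come first: Mcm3 (minus strand, chr1:20820276-20820303), Cdt1 (plus, chr8:122568037-122568064), Lig1 (plus, chr7:13278842-13278869), E2f2 (plus, chr4:136172303-136172323) and Dnmt1 (minus, chr9:20952574-20952600). Then follow Mcm5 (plus, chr8:75109346-75109373), Mcm6 (minus, chr1:128359735-128359762), Orc1 (plus, chr4:108579417-108579444), Pold1 (minus, chr7:44548766-44548786) and Rfc3 (minus, chr5:151651191-151651218), which did not pass.
Mcm3: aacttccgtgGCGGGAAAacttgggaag
Cdt1: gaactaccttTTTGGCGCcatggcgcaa
Lig1: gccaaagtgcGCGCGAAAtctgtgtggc
E2f2: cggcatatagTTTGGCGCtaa
Dnmt1: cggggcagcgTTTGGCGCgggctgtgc
Mcm5: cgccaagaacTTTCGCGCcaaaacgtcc
Mcm6: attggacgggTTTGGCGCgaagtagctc
Orc1: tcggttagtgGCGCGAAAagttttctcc
Pold1: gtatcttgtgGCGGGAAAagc
Rfc3: tttcgcgctcGCGGGAAAactctactgt

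The 35 members had 43 windows, since a gene with several start sites has several, and 14 of the 43 held a match (32.6%), against 744 of 32851 windows of all genes (2.26%). Counted by gene, 14 of 35 members (40%) had at least 1 window with a match, against 704 of 27025 genes (2.60%) and 515 of 11852 tested genes (4.35%). The 14 are Cdc6, Cdt1, Dnmt1, E2f2, Gins3, Lig1, Mcm3, Mcm5, Mcm6, Mcm7, Orc1, Pold1, Rfc3 and Uhrf1. They held 21 matches, some overlapping each other as in Mcm5 and Mcm6, and 13 of the 21 lay within 50 bases of the start site. The match was in 5 of 18 windows of called members (27.8%) and in 9 of 25 windows of the others (36.0%). In 7 of the 14 (Cdc6, Dnmt1, Lig1, Mcm5, Mcm7, Orc1 and Uhrf1) the start site of the matched window lies inside the annotated gene, by 41 bases in Mcm5 to 7265 bases in Dnmt1. In the other 7 it is the annotated 5′ end of the gene, where the gene begins. CCAAT, the letters bound by NF-Y, was in 60.5% of member windows and 37.4% of all windows. TTTGAA, the core of the CHR element of late cell cycle promoters, was in 16.3% of member windows and 17.9% of all windows, and in 20 of 27 windows of mitosis genes (74.1%). Among members it was in 5 of 18 windows of called genes and in 2 of 25 windows of the others. These are matches of letters and not measured binding.

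Of the 44 members, 13 rose in STAT6-/- (adjusted p below 0.05 over all tested genes, edgeR), none fell and 31 did not pass. Over all tested genes 11.4% rose and 11.5% fell. At an unadjusted p below 0.05, 27 members were higher and 1 was lower, where 6067 of the 15066 tested genes passed in either direction. DESeq2 called 25 members higher and 1 lower, where it called 18% of all tested genes higher. The log2 fold change (STAT6-/- minus WT throughout) was above 0 in 42 of 44 members, against 50.6% of all tested genes, and its median was 1.52 against 0.01. All 3 STAT6-/- libraries lay above all 3 WT libraries in 21 members, where 22.0% of tested genes did so, and below them in 1 member, Gins4, where 24.5% did so. The 13 that rose were Mcm3, Mcm10, Cdt1, Cdc45, Pole, Fen1, Lig1, Rpa1, Ccne1, E2f2, E2f8, Chaf1a and Dnmt1. In whole tissue, more dividing cells and more RNA per cell cannot be told apart.

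The call depends on the libraries compared. Without STAT6-/- replicate 1, 2 members remained called (E2f2 and Dnmt1), and without STAT6-/- replicate 3 there were 20 calls. These fits called 6.81% and 12.5% of all tested genes higher. Without WT replicate 2 or WT replicate 3 there were 0 calls among members, and 31 and 18 among all genes. In each of the latter fits 15 members were higher at an unadjusted p below 0.05. Over all genes 4370 of 15497 and 4285 of 15395 passed it, in either direction. Removing trends with gene length and GC content, a step added after the data were seen, left 7 members called higher. That fit called 7.42% of all tested genes higher.

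**Figure D1:**
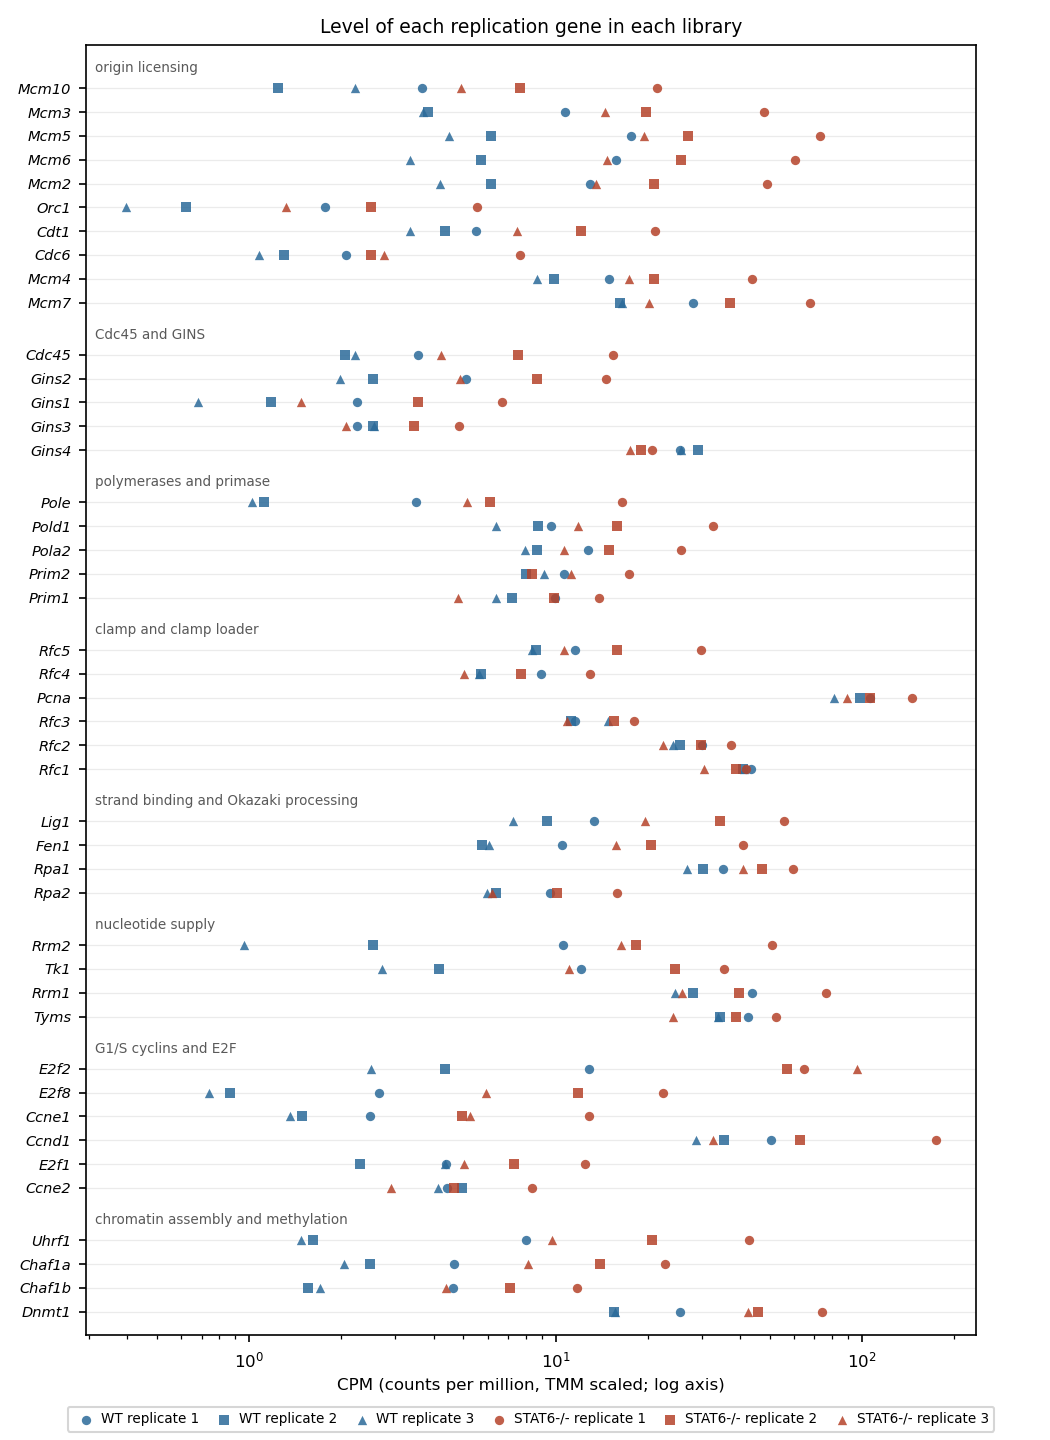
CPM (TMM scaled, log axis) of each of the 44 genes in each of the 6 libraries, grouped by role and ordered by fold change within a role; red is STAT6-/-, blue is WT, and the marker shape gives the replicate. STAT6-/- replicate 1 is the rightmost point of most rows, Gins4 is the gene whose red points all lie left of its blue ones, and the clamp and clamp loader rows overlap.

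Origin licensing was represented by 10 genes. All 10 had a log2 fold change above 0 (1.04 to 2.25, median 1.80). The STAT6-/- libraries lay above all WT libraries in 7, where 22.0% of tested genes did so. Of the 10, 3 rose (30%, where 11.4% of all tested genes rose). Mcm3, a subunit of the Mcm2-7 helicase ring, stood at 47.9, 19.8 and 14.5 CPM in STAT6-/- replicates 1 to 3 and at 10.7, 3.85 and 3.69 CPM in WT. Its lowest STAT6-/- library exceeded its highest WT library, and its log2 fold change was 2.17 ± 0.60 (SE; adjusted p = 0.0428). Mcm10, which helps to start the loaded helicase, stood at 21.4, 7.68 and 4.92 CPM in STAT6-/- and at 3.67, 1.24 and 2.21 CPM in WT (log2 fold change 2.25 ± 0.65, adjusted p = 0.0478). Cdt1, the loading factor that is destroyed once S phase begins, stood at 21.2, 12.1 and 7.46 CPM in STAT6-/- and at 5.50, 4.34 and 3.35 CPM in WT. Its values were separated in the same way (1.63 ± 0.42, adjusted p = 0.0350).

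None of the other ring subunits passed the test. Mcm2 stood at 49.1, 20.99 and 13.6 CPM in STAT6-/- and at 13.0, 6.14 and 4.20 CPM in WT, so that STAT6-/- replicate 3 and WT replicate 1 nearly met, and its log2 fold change of 1.85 ± 0.59 did not pass (adjusted p = 0.0620). Mcm7, the most abundant licensing gene per length (13.2 FPKM over all libraries, a unit scaled to transcript length and depth), stood at 67.6, 37.2 and 20.2 CPM in STAT6-/- and at 28.1, 16.2 and 16.5 CPM in WT. Here STAT6-/- replicate 3 lay below WT replicate 1 (1.04 ± 0.45, adjusted p = 0.129). The remaining members, Mcm4, Mcm5, Mcm6, Cdc6 and Orc1, had log2 fold changes of 1.30, 2.08, 2.03, 1.54 and 1.75, with adjusted p from 0.0572 (Mcm4) to 0.121 (Orc1). Cdc6 and Orc1, which mark and load the origin, were also the members lowest per length, at 0.648 and 0.688 FPKM. Without STAT6-/- replicate 1, none of the 10 licensing genes was called.

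Cdc45 and the 4 GINS subunits form the active helicase with the Mcm ring, yet they did not move alike. Cdc45 rose, from 3.55, 2.05 and 2.21 CPM in WT to 15.5, 7.52 and 4.23 CPM in STAT6-/- (log2 fold change 1.80 ± 0.52, adjusted p = 0.0473). Gins1 and Gins2 had log2 fold changes of 1.51 ± 0.66 and 1.55 ± 0.52, with overlapping groups (adjusted p = 0.133 and 0.0707). Gins3 gave 0.50 ± 0.38, also with overlap (adjusted p = 0.358). Gins4, the fourth subunit, stood at 20.6, 19.0 and 17.6 CPM in STAT6-/- and at 25.5, 29.2 and 25.6 CPM in WT. It is the member with every STAT6-/- library below every WT library, and its log2 fold change was -0.49 ± 0.15 (adjusted p = 0.0586 by edgeR); DESeq2 called it lower. Gins4 was also the most abundant of the 5 per length, at 16.9 FPKM against 1.24 to 6.18 for the rest.

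Polymerases and primase gave 1 call in 5 (20%, where 11.4% of all tested genes rose). Pole, the catalytic subunit of the leading strand polymerase, stood at 16.5, 6.11 and 5.13 CPM in STAT6-/- and at 3.49, 1.12 and 1.02 CPM in WT (log2 fold change 2.30 ± 0.67, adjusted p = 0.0486). Pold1, the catalytic subunit of the lagging strand polymerase, also had groups that did not overlap, at 11.9 to 32.6 against 6.41 to 9.64 CPM, and just missed the threshold (1.28 ± 0.40, adjusted p = 0.0588). Pola2, the second subunit of polymerase alpha, gave 0.80 ± 0.37 (adjusted p = 0.148). Of the primase pair, which lays the RNA primers, Prim2 gave 0.41 ± 0.31 (adjusted p = 0.349). Prim1, the most abundant of the role per length at 5.76 FPKM, stood at 13.9, 9.87 and 4.81 CPM in STAT6-/- and at 9.94, 7.197 and 6.41 CPM in WT. STAT6-/- replicate 3 held its lowest value of all 6 libraries, and its fold change of 0.28 ± 0.41 did not pass (adjusted p = 0.629). Prim1 lies 0.372 Mb from Stat6 on chromosome 10, and whether both loci share an inherited segment in these mice was not tested.

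The sliding clamp and its loader gave 0 calls in 6, with 1 of the 6 at an unadjusted p below 0.05 (Rfc5, higher) and 0 of 6 called by DESeq2 in either direction. Of all tested genes, 6067 of 15066 passed that unadjusted threshold in either direction, and DESeq2 called 18% higher. Pcna, the clamp that tethers the polymerases and the classical tissue marker of proliferation, stood at 145, 106.5 and 89.5 CPM in STAT6-/- and at 106, 98.5 and 80.9 CPM in WT. The groups overlapped, with a log2 fold change of 0.26 ± 0.21 (adjusted p = 0.397). Pcna was the most abundant of the 44 per length, at 94.1 ± 30.0 FPKM in STAT6-/- and 74.3 ± 8.66 in WT (SD, n = 3), and the next, Rfc2, had 18.8 FPKM over all libraries. The loader subunits Rfc1, Rfc2, Rfc3, Rfc4 and Rfc5 gave log2 fold changes of -0.17, 0.17, 0.24, 0.34 and 0.98, all with overlapping groups, and the role's median was 0.25. Rfc3 is the gene whose start site lies in the E2F-type match printed above.

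Strand binding and Okazaki fragment processing had the highest share of calls, 3 of 4 (75%, where 11.4% of all tested genes rose). Fen1, the nuclease that cuts away the displaced primer flap, stood at 40.9, 20.5 and 15.8 CPM in STAT6-/- and at 10.5, 5.77 and 6.07 CPM in WT (log2 fold change 1.79 ± 0.42, adjusted p = 0.0289). Lig1, the ligase that seals the nick after Fen1, stood at 55.6, 34.4 and 19.6 CPM in STAT6-/- and at 13.4, 9.37 and 7.26 CPM in WT (1.87 ± 0.41, adjusted p = 0.0243). In both genes the lowest STAT6-/- library lay above the highest WT library. Rpa1, the large subunit of the complex that coats single-stranded DNA, stood at 59.4, 47.2 and 41.1 CPM in STAT6-/- and at 35.1, 30.3 and 26.9 CPM in WT. Its rise was the smallest among the called members (0.68 ± 0.19, adjusted p = 0.0411). Rpa2, the middle subunit, gave 0.55 ± 0.39 with overlapping groups (adjusted p = 0.318).

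Nucleotide supply gave 0 calls in 4. At an unadjusted p below 0.05, 2 were higher and 0 lower, where 6067 of 15066 tested genes passed in either direction. Rrm2, the small subunit of ribonucleotide reductase and the part whose level follows S phase, stood at 51.0, 18.3 and 16.3 CPM in STAT6-/- and at 10.6, 2.54 and 0.964 CPM in WT. The groups did not overlap, and the spread among the WT libraries was wide (log2 fold change 2.60 ± 0.88, adjusted p = 0.0706). Tk1, the S phase thymidine kinase and the most abundant of the 4 per length (11.2 FPKM), stood at 35.6, 24.5 and 11.1 CPM in STAT6-/- and at 12.1, 4.16 and 2.72 CPM in WT. WT replicate 1 exceeded STAT6-/- replicate 3 here (1.90 ± 0.64, adjusted p = 0.0715). Rrm1, the large reductase subunit, gave 0.56 ± 0.41 (adjusted p = 0.341), and Tyms, which makes thymidylate, gave 0.06 ± 0.28 (adjusted p = 0.892). DESeq2 called Rrm2 higher, while edgeR did not.

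The G1/S cyclins and E2F factors held the largest fold changes of the 44. E2f2, an activating E2F, stood at 64.8, 57.1 and 96.1 CPM in STAT6-/- and at 12.8, 4.34 and 2.50 CPM in WT. It was 11.1-fold higher (log2 fold change 3.47 ± 0.60, adjusted p = 0.0149), and it is the called member with its highest value in STAT6-/- replicate 3. E2f8, an atypical repressing E2F, stood at 22.5, 11.8 and 5.92 CPM in STAT6-/- and at 2.66, 0.869 and 0.737 CPM in WT (3.23 ± 0.69, adjusted p = 0.0223). Ccne1, the cyclin E that partners Cdk2, stood at 12.9, 4.96 and 5.24 CPM in STAT6-/- and at 2.48, 1.49 and 1.36 CPM in WT (2.11 ± 0.49, adjusted p = 0.0270). Its paralogue Ccne2 gave 0.23 ± 0.41 with overlapping groups (adjusted p = 0.693). E2f1, another activating E2F, had groups that did not overlap, at 5.03 to 12.5 against 2.30 to 4.38 CPM, and did not pass (1.17 ± 0.43, adjusted p = 0.0887). Ccnd1, the cyclin D that responds to growth signals, stood at 174, 62.7 and 32.7 CPM in STAT6-/- and at 50.6, 35.5 and 28.6 CPM in WT. Its mean was set largely by STAT6-/- replicate 1 (1.23 ± 0.58, adjusted p = 0.156).

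Chromatin assembly and maintenance methylation follow the fork, and 2 of 4 genes rose (50%, where 11.4% of all tested genes rose). Dnmt1, which copies CpG methylation onto the new strand, stood at 74.3, 45.8 and 42.5 CPM in STAT6-/- and at 25.5, 15.5 and 15.7 CPM in WT. Its log2 fold change was 1.52 ± 0.30 (adjusted p = 0.0187). Chaf1a, the large subunit of the histone loader CAF-1, stood at 22.7, 13.9 and 8.15 CPM in STAT6-/- and at 4.67, 2.48 and 2.04 CPM in WT (2.28 ± 0.49, adjusted p = 0.0223). Its partner Chaf1b gave 1.56 ± 0.56, with STAT6-/- replicate 3 just below WT replicate 1 (adjusted p = 0.0825). Uhrf1, which brings Dnmt1 to hemimethylated DNA, had groups that did not overlap, at 9.73 to 42.7 against 1.48 to 7.98 CPM, and an adjusted p of 0.0528 (2.72 ± 0.82). It is the member nearest the threshold on its far side, while Pole, at 0.0486, is the nearest that passed.

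**Figure D2:**
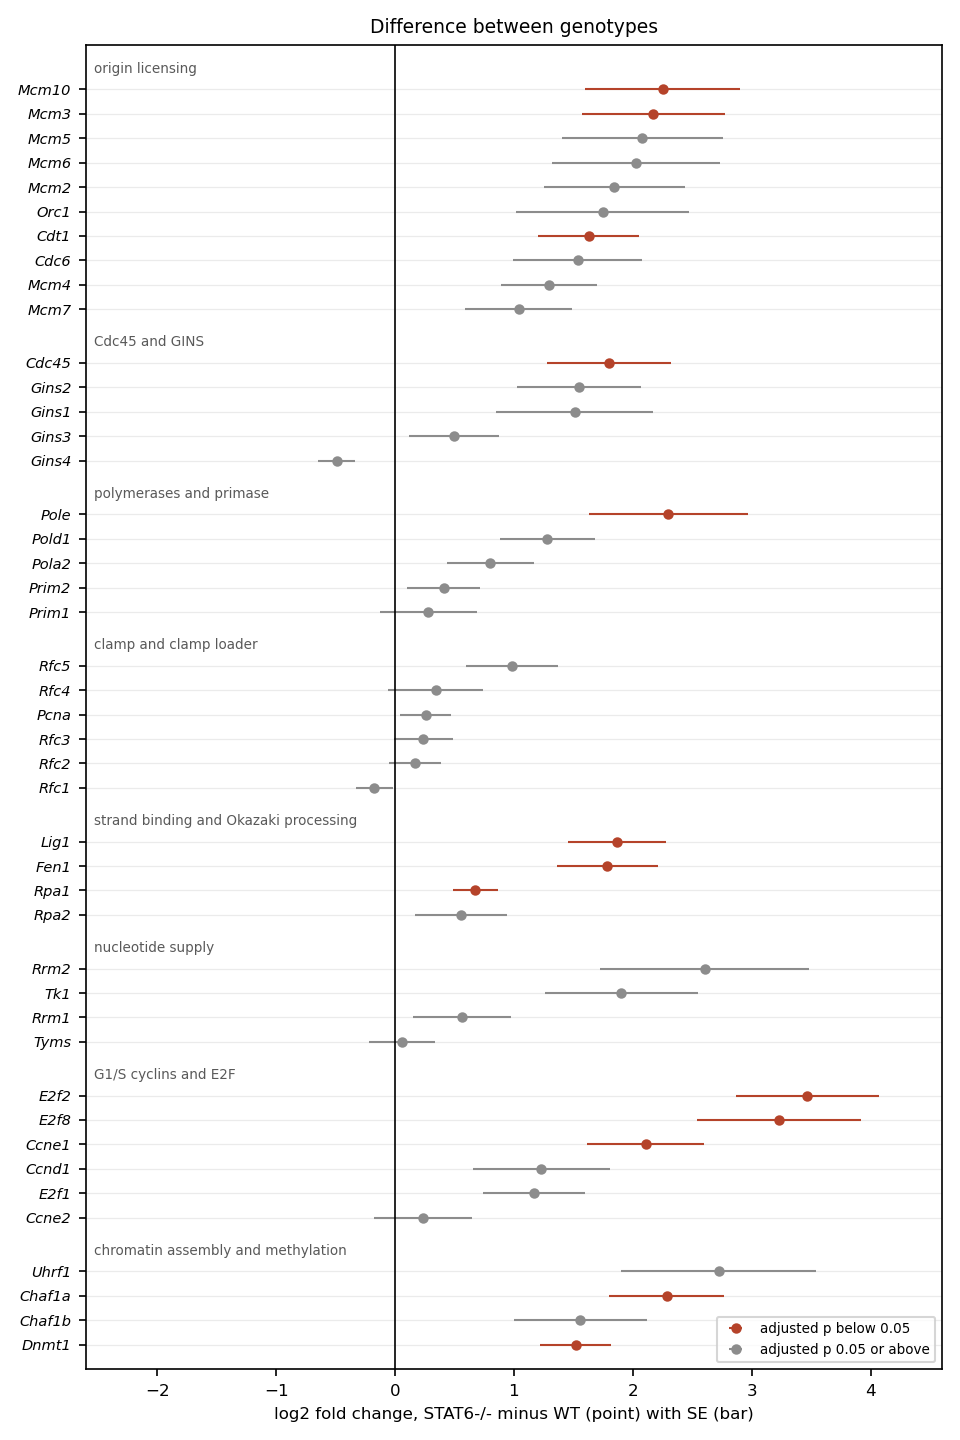
Log2 fold change (STAT6-/- minus WT) of each of the 44 genes with its standard error, grouped by role. Red points passed the test at an adjusted p below 0.05, and grey points did not. The 13 red points range from 0.68 (Rpa1) to 3.47 (E2f2), and Gins4 and Rfc1 are the points left of 0.

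The size of the difference varied more between libraries than the group means show. STAT6-/- replicate 1 was the highest of its group in 43 of 44 members (29.8% of all tested genes), and STAT6-/- replicate 3 the lowest in 40 (36.8%). In WT, replicate 1 was the highest in 40 (31.0%). Relative to the WT mean of each gene, the median member stood 4.50-fold in STAT6-/- replicate 1, 2.21-fold in replicate 2 and 1.48-fold in replicate 3, with 42, 41 and 30 members above the WT mean. Between STAT6-/- replicates 1 and 3 the median ratio was 2.79. STAT6-/- replicate 3 exceeded WT replicate 1 in 22 members and fell below it in the other 22. Summed over the 44 genes, the level was 1684.0, 957.5 and 731.7 CPM in STAT6-/- and 707.4, 508.6 and 457.8 CPM in WT, so the lowest STAT6-/- sum and the highest WT sum lay close together.

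The members followed one another across the libraries. The median Pearson correlation of log2(CPM + 1) over the 946 pairs of members was 0.88 across the 6 libraries, and 604 pairs exceeded 0.8; the points share their libraries and depth, and the genotype difference is part of the value. Gins4 ran against the rest, with a median correlation of -0.63 to the others. Rfc1 was unrelated to them at 0.01, while Tyms and Ccne2 were at 0.55 and 0.60. E2f2, at 0.76, followed the others less closely than most called members, with its highest value in STAT6-/- replicate 3.

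**Figure D3:**
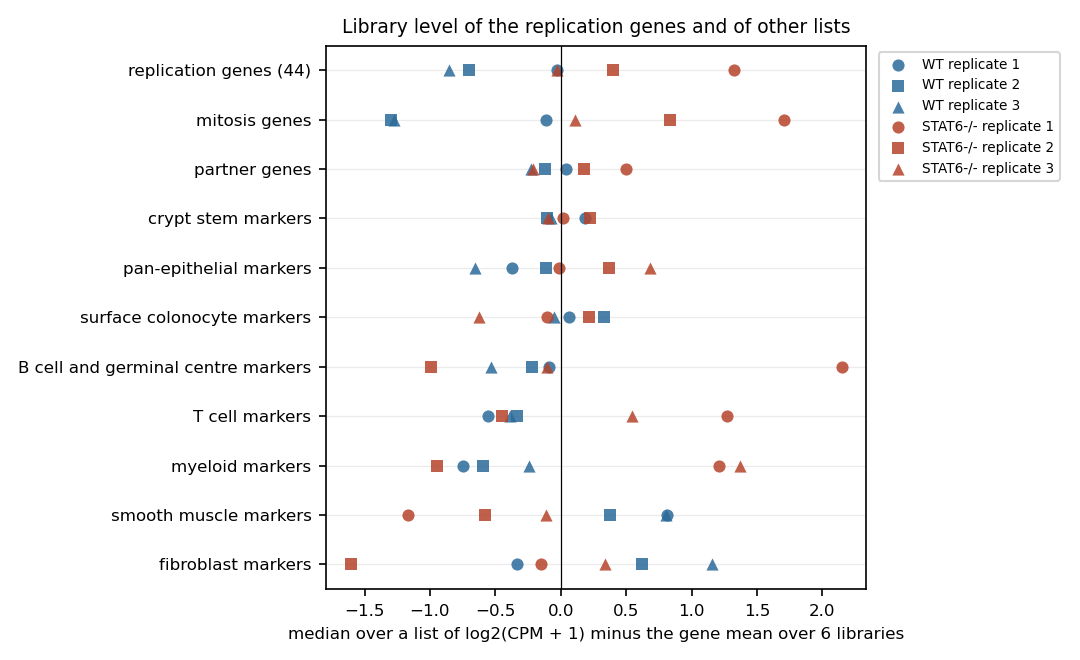
Median over the genes of a list of the centred log2 level (each gene's log2(CPM + 1) minus its mean over the 6 libraries) in each library, for the 44 genes, the pooled partner genes, the mitosis genes and the cell type markers. The 44 genes run from 1.32 in STAT6-/- replicate 1 to -0.03 in STAT6-/- replicate 3 and from -0.03 to -0.85 in WT, the mitosis genes follow the same order from STAT6-/- replicate 1 to 3, and the smooth muscle markers are lowest in STAT6-/- replicate 1.

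Over 4 lists of 98 partner genes of the same processes, 16 rose (16.3%, where 11.4% of all tested genes rose), 5 fell (where 11.5% of all fell) and 77 did not pass, with a median log2 fold change of 0.34. Of 35 further replication factors 9 rose (25.7%) and 2 fell. Those that rose included Pold3, an accessory subunit of polymerase delta (17.8 ± 1.61 CPM in WT, 35.2 ± 3.83 in STAT6-/-), Dbf4, the activator of the Cdc7 kinase (4.23 ± 1.17 against 15.9 ± 7.21), and Timeless, a fork protection factor (1.92 ± 0.978 against 9.88 ± 4.46; SD, n = 3 each). Their log2 fold changes were 0.98, 1.91 and 2.36, and Timeless lies 0.589 Mb from Stat6. A pair of origin recognition subunits went the other way: Orc3 fell by 0.75 and Orc5 fell by 0.85 on the log2 scale (adjusted p = 0.0194 and 0.0319). Rpa3, the most abundant of the list per length, gave -0.18 ± 0.30 (adjusted p = 0.672).

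Of 30 further enzymes of nucleotide synthesis, 3 rose (10%, close to the 11.4% of all tested genes) and 2 fell (where 11.5% of all fell). Those that rose were Ctps2 and Ctps, which make CTP, and Cad, which carries the opening steps of pyrimidine synthesis, with log2 fold changes of 1.65, 1.52 and 1.41 (adjusted p = 0.00971, 0.0420 and 0.0445). Paics, an enzyme of purine synthesis, fell from 156.7 ± 25.1 CPM in WT to 58.3 ± 20.2 in STAT6-/- (log2 fold change -1.43, adjusted p = 0.0207). Rrm2b, the reductase subunit used outside S phase and induced by p53, fell from 17.8 ± 5.16 to 9.43 ± 0.717 CPM (-0.91, adjusted p = 0.0421), while Rrm2 had the values given above. The most abundant of the list, Cmpk1, a kinase of CMP and UMP, gave -0.44 ± 0.21 (adjusted p = 0.160).

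Of 23 further G1/S regulators, 3 rose (13.0%, close to the 11.4% of all tested genes) and 1 fell (where 11.5% of all fell). E2f4 and Tfdp1, an E2F and a dimer partner of E2Fs, rose by log2 0.82 and 0.73 (adjusted p = 0.0190 and 0.0321), and Ccna2, the S phase cyclin A, rose from 10.3 ± 7.97 to 72.6 ± 42.5 CPM (2.82, adjusted p = 0.0267). Cdk6, a cyclin D kinase, fell by 0.75 (adjusted p = 0.0413), and Cdkn1a, the p21 inhibitor and most abundant of the list, gave -0.34 ± 0.22 (adjusted p = 0.294). Of 10 histone and chromatin factors 1 rose (10%, also close to the share of all tested genes), the histone chaperone Asf1b (2.50 ± 0.64, adjusted p = 0.0341). The most abundant, Rbbp7, gave -0.21 ± 0.24 (adjusted p = 0.530).

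Of 30 mitosis genes, which act after replication, 16 rose (53.3%, where 11.4% of all tested genes rose) and none fell. At an unadjusted p below 0.05, 29 were higher and 0 lower, where 6067 of 15066 tested genes passed in either direction. The median log2 fold change of the 30 was 1.91. Foxm1, the transcription factor of the late cell cycle, rose by log2 3.11, Kif23, a motor of cytokinesis, by 2.18, and Ube2c, a ubiquitin carrier of the anaphase complex, by 2.94 (adjusted p = 0.0134, 0.0171 and 0.0212). The summed level of the 30 genes was 1576.7, 883.2 and 530.5 CPM in STAT6-/- and 426.1, 177.9 and 190.3 in WT, so the groups did not overlap, and STAT6-/- replicate 1 was again the highest.

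Markers of the cell types in the tissue were compared as well, and their part in the replication differences was not tested. Of 8 pan-epithelial markers 1 rose (12.5%, close to the 11.4% of all tested genes), Vil1 (log2 fold change 1.19), and Epcam gave 0.07 ± 0.25. Their summed level was 12545.2 to 20981.9 CPM in STAT6-/- and 8532.1 to 12080.7 in WT, and it was highest in STAT6-/- replicate 3, the library of that group in which most replication genes were lowest. Of 10 tested crypt stem markers 1 rose (10%), the receptor Ephb2 (2.56), while Lgr5 was low in every library (0.261 to 1.42 CPM). Of 9 tested surface colonocyte markers 1 rose (11.1%), Krt20 (1.48), and 1 fell, Car1 (-3.40), where 11.5% of all tested genes fell.

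Of 7 smooth muscle markers 6 fell, where 11.5% of all tested genes fell. Their summed levels were 2304.4, 3490.9 and 5195.3 CPM in STAT6-/- against 8796.5 to 10846.6 in WT. Within STAT6-/- the smooth muscle sum thus ran opposite to the replication sum. In WT it did not, since the replication sum fell from replicate 1 to 3 while the smooth muscle sum was lowest in replicate 2. All 4 tested adipocyte markers fell, as did 1 of 6 fibroblast markers, Lum.

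The sums of immune markers differed between the STAT6-/- libraries. The 8 B cell and germinal centre markers summed to 343.3, 37.3 and 78.9 CPM in STAT6-/- and to 44.5 to 63.0 in WT, with 0 called. At an unadjusted p below 0.05, 2 were higher and 0 lower, where 6067 of 15066 tested genes passed in either direction. The 7 tested T cell markers summed to 108.6, 39.4 and 80.2 CPM against 41.2 to 63.5, and 2 rose, Cd2 and Cd3e (28.6%). The 8 myeloid markers summed to 1262.0, 427.7 and 933.8 CPM against 319.1 to 486.0. Of these, 1 rose, Cd14 (12.5%, where 11.4% of all tested genes rose). Lyz2 made up 739.5 CPM of the myeloid sum in STAT6-/- replicate 1. Lyz2, Adgre1, Cd14 and S100a8 were highest in STAT6-/- replicate 1, and Csf1r, Cd68, Itgam and S100a9 were highest in STAT6-/- replicate 3. In STAT6-/- replicate 2 the B cell and T cell sums lay below every WT library. Without STAT6-/- replicate 1, the median log2 fold change of the 44 replication genes was 0.89 and 38 were above 0. How far immune cells bear on the replication genes was not tested.

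**Figure D4:**
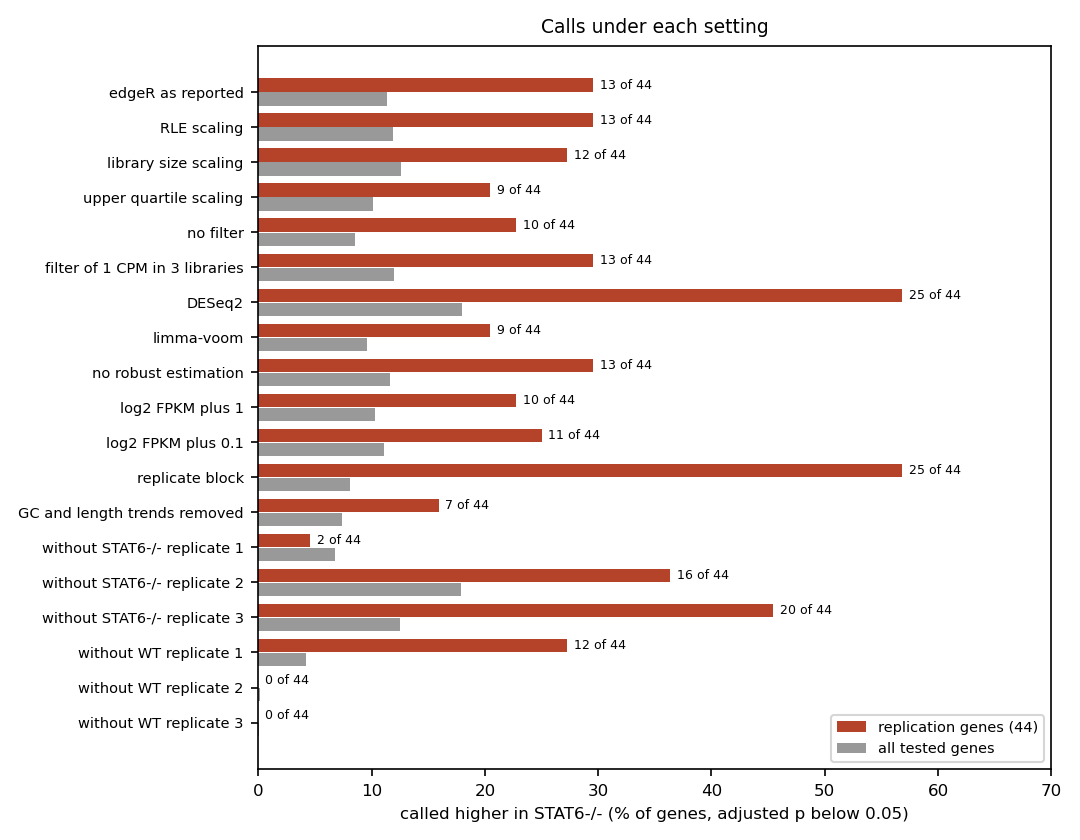
Share of genes called higher in STAT6-/- (% of genes, adjusted p below 0.05) under each setting, in red for the 44 replication genes and in grey for all tested genes. The red share exceeds the grey one in every setting but 3: without STAT6-/- replicate 1 (2 of 44) and without WT replicate 2 or 3 (0 of 44).

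Counting limits some of these values. Gene bodies of 14 members overlap another measured gene, by 7 bases (E2f1 with Necab3) to 5622 bases (Ccne2 with Ints8). Among them are the called Cdc45, Chaf1a, Fen1, Lig1 and Rpa1, by 22 bases (Rpa1 with Smyd4) to 1547 bases (Lig1 with Zswim9). How many of the shared bases lie in counted transcripts was not measured. Whether counting used strand is not given in the sources used here, so reads in the shared bases cannot be assigned with certainty. Pcna has the pseudogenes Pcna-ps1 and Pcna-ps2, which have no entry in the tables used, and Tyms has Tyms-ps, which has one, so reads of near-identical sequence may have been divided. For the 17 members with more than 1 listed transcript, only the sum per gene was used, because in 10 of them a transcript took 0% of the gene in one library and over 40% in another.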

How the data were processed

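Colon RNA of 3 STAT6-/- and 3 WT libraries was analysed. The deposited expected counts are the authors' estimates of reads per RefSeq transcript, not normalised, per the file headers. The deposited FPKM, per the file headers, are per kilobase of transcript and by depth. The submitters' processing notes name RSEM 1.2.12, Bowtie2 2.2.5 and mm10. Listed FPKM values start at 0.01; unlisted transcripts counted as 0.

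Counts were summed per gene and rounded. Of 28238 transcripts, 27986 were named by a RefSeq table of GRCm38.p6 and 149 by GENCODE M21; 103 stayed unnamed (0.167% of counts) and remained separate entries. Genes passing filterByExpr were tested with edgeR 4.0.16 (TMM factors, robust quasi-likelihood F test, R 4.3.3), STAT6-/- against WT, with Benjamini-Hochberg adjustment over all 15066 tested genes; calls are at an adjusted p below 0.05. The script was tested on simulated data of 14935 genes. It made 120 calls there, 7 of them false, and recovered 18% of 2-fold and 95% of 4-fold changes. CPM are TMM-scaled, and lists are given by counts, medians and summed CPM. SD is over 3 libraries; SE comes from the fit. DESeq2 1.42.0, limma 3.58.1, other scalings and filters, FPKM with pseudocounts of 1 and 0.1, a replicate block and each library left out were run as alternatives. No chi-square comparison found libraries that agree within sampling noise.

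Values in every library are given for called members, Pcna, Mcm2, Rrm2 and the most abundant member of each role per length. Other lists name up to 3 genes called in each direction by smallest p, plus the most abundant. Genes outside this rule (Epcam, Slc26a3, Lgr5) check the tissue, and Pold1, E2f1 and Uhrf1 are given as ranges. Csf1r, Cd68, Itgam, S100a9, Adgre1 and S100a8 were named after their values were seen. The members and lists were chosen with earlier results of these data known. Figures were drawn with matplotlib 3.10.9.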

Additional observations from a re-analysis of the deposited data

How the results depend on the processing

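Scaling, filters and robust estimation left 9 to 13 of the 44 genes called higher, and all scalings left 42 of 44 log2 fold changes above 0. DESeq2 called 25 higher and 1 lower (Gins4) among the 44, and 25 higher among the partner genes. With gene length and GC trends removed, an alternative chosen after seeing the data, 7 of the 44 were higher, as were 7.42% of all tested genes. Leaving out 1 library gave 0 to 20 higher among the 44, and 0 to 25 higher and 0 to 7 lower among the partner genes. Partner genes called lower numbered 5, against 2 with library size scaling, 3 without a filter, 3 with log2(FPKM + 1), 3 with log2(FPKM + 0.1) and 1 once trends in length and GC content were removed. The replicate block, with replicate numbers as a term, gave 25 of the 44 higher, 23 partner genes higher and 2 lower. It called 8.09% of all tested genes higher. The numbers are not known to pair the samples. Deviations of same-numbered libraries correlated at 0.023, 0.044 and 0.134. STAT6-/- replicates 1 and 3 each correlated best with the WT library of the same number. STAT6-/- replicate 2 correlated best with WT replicate 1 (0.054). Stat6 lay between -1.059 and -0.851 when 1 library was left out. The cause of these shifts was not tested. Fits that left 1 library out called from 18 genes (without WT replicate 3) to 5190 genes (without STAT6-/- replicate 2). E2f2 and Dnmt1 lost their calls in 2 of 18 settings, without WT replicate 2 or 3, and Mcm10 in 11 of 18.

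Signs changed for some named genes that had not passed the test. When 1 library was left out, log2 fold changes ranged from -0.217 to 0.574 for Ccne2, -0.143 to 0.945 for Lyz2, -0.0576 to 0.645 for Prim1, -0.357 to 0.0174 for Rbbp7, -0.0503 to 0.657 for Rfc4, -0.335 to 0.148 for Rpa3, -0.231 to 0.384 for Thy1 and -0.190 to 0.3501 for Tyms. Under the replicate block Tyms was at -0.0005. With trends in length and GC content removed Rpa3 was at 0.576 and Thy1, a T cell marker, at -0.216; upper quartile scaling put Thy1 at -0.023. At these depths the lowest count of a member was 7, in Orc1.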
